A study of Homo sapiens with 9 samples.

Results

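The genes described here are 6 metallothioneins, a zinc sensor and 3 zinc transporters in Hep3B cells: MT1E, MT1F, MT1G, MT1M, MT1X, MT2A, MTF1, SLC30A1, SLC39A10 and SLC39A14. They were chosen by gene symbol, and all 10 were found among the 60683 genes of the count table. Expression was measured by RNA-seq in Hep3B, a human liver cancer cell line grown in culture. The 9 libraries, 3 per group, came from cells given DMSO vehicle at 20% O2, DMSO vehicle at 1% O2, or the compound 32-134D at 1% O2, each for 24 hours, and 32-134D was developed in the study as an inhibitor of hypoxia-inducible factors (HIFs), the transcription factors that respond to low O2. All cells were of 1 line, the labels do not state the concentration of 32-134D, and the files analysed here hold no library of 32-134D at 20% O2, so the effect of the compound was measured only in hypoxic cells. The labels call the replicates biological without describing them further. The p-values set a difference between groups against the spread between such replicates, estimated in 1 fit of the 9 libraries.

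Metallothioneins are small, cysteine-rich proteins of the cytoplasm and nucleus that bind zinc and copper, and the liver is a major site of their synthesis. MTF1 is a zinc finger transcription factor that senses free zinc, binds metal response elements (MREs) in DNA and activates metallothionein genes and SLC30A1. SLC30A1 (ZnT1) exports zinc across the plasma membrane, whereas transporters of the SLC39 or ZIP family move zinc into the cytoplasm. SLC39A10 (ZIP10) is a plasma membrane importer, and SLC39A14 (ZIP14), abundant in hepatocytes, imports zinc, manganese and iron that is not bound to transferrin.

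The sequences before the start sites of MT2A, MT1X and SLC30A1 are shown because these genes were called higher with hypoxia and hold MRE matches there, in differing numbers. MT1E, which was called in all 3 comparisons below, had no such sequence available. They are RefSeq sequences on GRCh38.p14, 250 bases long, ending at the base before the start site and written 5′ to 3′ on the strand of the gene. Capitals mark matches to the MRE cores TGCACNC and TGCGCNC on either strand. MT2A lies at chr16:56608334-56608583 on the plus strand, MT1X at chr16:56682220-56682469 on the plus strand and SLC30A1 at chr1:211579162-211579411 on the minus strand. These RefSeq start sites differ from the GENCODE gene starts used for positions below. The MT2A bases shown lie inside the GENCODE gene, chr16:56608199-56609497.
MT2A: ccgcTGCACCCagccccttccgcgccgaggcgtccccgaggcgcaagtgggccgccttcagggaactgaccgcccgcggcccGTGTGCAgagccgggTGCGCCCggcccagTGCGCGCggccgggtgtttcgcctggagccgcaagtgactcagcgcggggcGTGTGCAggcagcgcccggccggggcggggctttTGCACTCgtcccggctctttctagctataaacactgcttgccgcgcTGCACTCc
MT1X: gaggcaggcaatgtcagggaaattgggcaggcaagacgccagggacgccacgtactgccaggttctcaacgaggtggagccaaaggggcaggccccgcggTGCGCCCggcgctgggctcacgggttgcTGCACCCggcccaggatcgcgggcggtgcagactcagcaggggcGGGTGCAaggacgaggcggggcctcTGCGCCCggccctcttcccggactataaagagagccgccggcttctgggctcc
SLC30A1: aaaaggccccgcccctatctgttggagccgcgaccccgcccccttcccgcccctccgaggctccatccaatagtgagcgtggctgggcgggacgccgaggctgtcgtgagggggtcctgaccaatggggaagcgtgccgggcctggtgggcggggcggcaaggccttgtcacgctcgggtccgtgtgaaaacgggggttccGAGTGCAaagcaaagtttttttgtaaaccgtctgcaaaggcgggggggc

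In the full window of 300 bases, which adds 50 bases after the start, MT2A held 8 MRE core matches, 7 of them before the start. MT1X held 4, all of them before the start, and SLC30A1 held 2, of which 1 was before the start. MTF1 held 0 matches, and the windows of 2 start sites of SLC39A10 held 0 and 1. Of 35116 RefSeq promoter windows of the same length, 29.6% held at least 1 match, 2.30% held at least 3 and 0.0740% held at least 6. The core of the HIF binding motif, ACGTG or GCGTG on either strand, matched 3 times in MT2A, MT1X and SLC30A1, 2 times in MTF1 and 1 time in each SLC39A10 window, and 48.4% of all windows held at least 1 such match and 10.1% at least 3. In MT2A, 2 of the 3 matches shared bases with an MRE core match. These matches are letters in a window and not measured binding. Windows of 3 other metallothionein genes of the same cluster were also searched, and MT1H held 8 MRE core matches, MT1B 3 and MT4 3. Over the 9 libraries MT1H had 15 counts, MT1B 3 and MT4 0. The sequences shown were picked by their hypoxia call, and whether the number of matches goes with expression was not tested. Promoter windows were used for 5 of the 10 genes. MT1E, MT1F, MT1G and MT1M had no entry, and SLC39A14 was left out of the search.

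**Figure D1:**
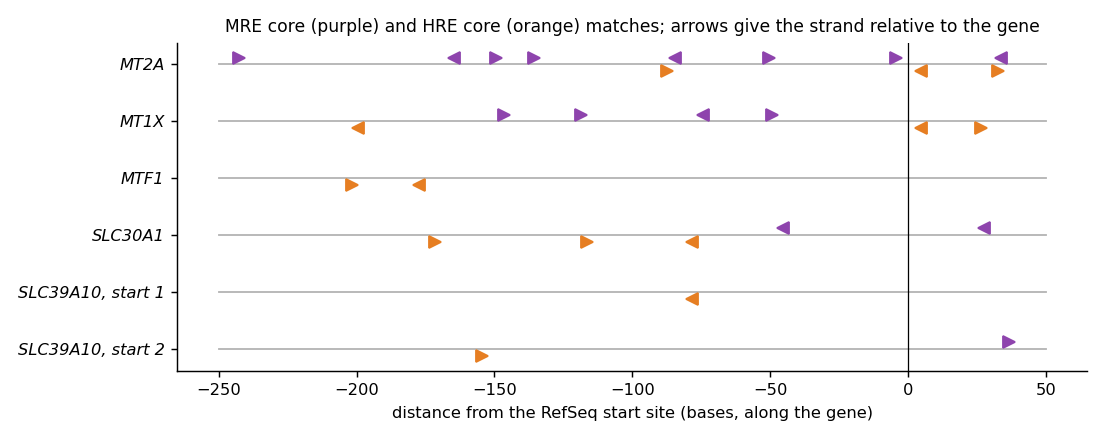
Positions of MRE core matches (TGCACNC or TGCGCNC) and HIF motif core matches (ACGTG or GCGTG) in the RefSeq promoter windows of the genes described here, in bases from the start site on the strand of the gene. MT2A has 8 MRE core matches, MT1X has 4, SLC30A1 has 2 and MTF1 has 0.

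Library totals ran from 6013980 counts in vehicle at 20% O2 replicate 2 to 40549699 in vehicle at 1% O2 replicate 1. Values per library below are CPM, read counts scaled for library depth with the TMM factors of edgeR. CA9, a standard HIF target, followed the labels, at 26.8 to 29.05 CPM with vehicle at 20% O2, 511 to 631 with vehicle at 1% O2 and 50.6 to 61.9 with 32-134D. All 10 liver markers were expressed. Of 8 markers of blood, endothelial and stromal cells, 4 reached the 10 summed counts needed for a test, ACTA2 was at 0 in every library, and their summed level was 8.96 to 9.26, 4.11 to 5.62 and 7.88 to 12.5 CPM in the same order of groups. On the second principal component 2 libraries stood apart, vehicle at 20% O2 replicate 2, the shallowest library, and 32-134D replicate 3. In 32-134D replicate 3, 9 of the 10 liver markers were lowest of the 3 compound libraries and 8 were lowest of all 9 libraries, with TTR at 9.79 CPM against 37.9 and 34.5 in the other compound libraries. In the same library 8 of the 10 genes described here were highest of the 3 compound libraries and 2 were lowest. The share over all genes was not computed. Of the other listed ZnT genes 4 were highest and 2 lowest in it, and of the other ZIP genes 4 and 5. Results that rest on this library are given with and without it.

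In vehicle-treated cells, 7 of the 10 genes were higher at 1% O2 than at 20% O2 and 0 were lower: MT1E, MT1G, MT1M, MT1X, MT2A, MTF1 and SLC30A1. Calls rest on the edgeR quasi-likelihood test and needed both an FDR (Benjamini-Hochberg, over the 22672 genes tested) below 0.05 and a fold change above 1.5. By the same rule 19.5% of all genes tested were higher and 20.3% were lower, 39.7% in either direction. The libraries of the groups did not overlap in 8 of the 10 genes, against 60.5% of all genes tested. The median log2 fold change was 1.12 over the 10 genes, also with MT1M at its lower bound, and 0.00 over all genes tested. In bulk RNA, fewer expressing cells and less RNA per cell cannot be told apart.

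**Figure D2:**
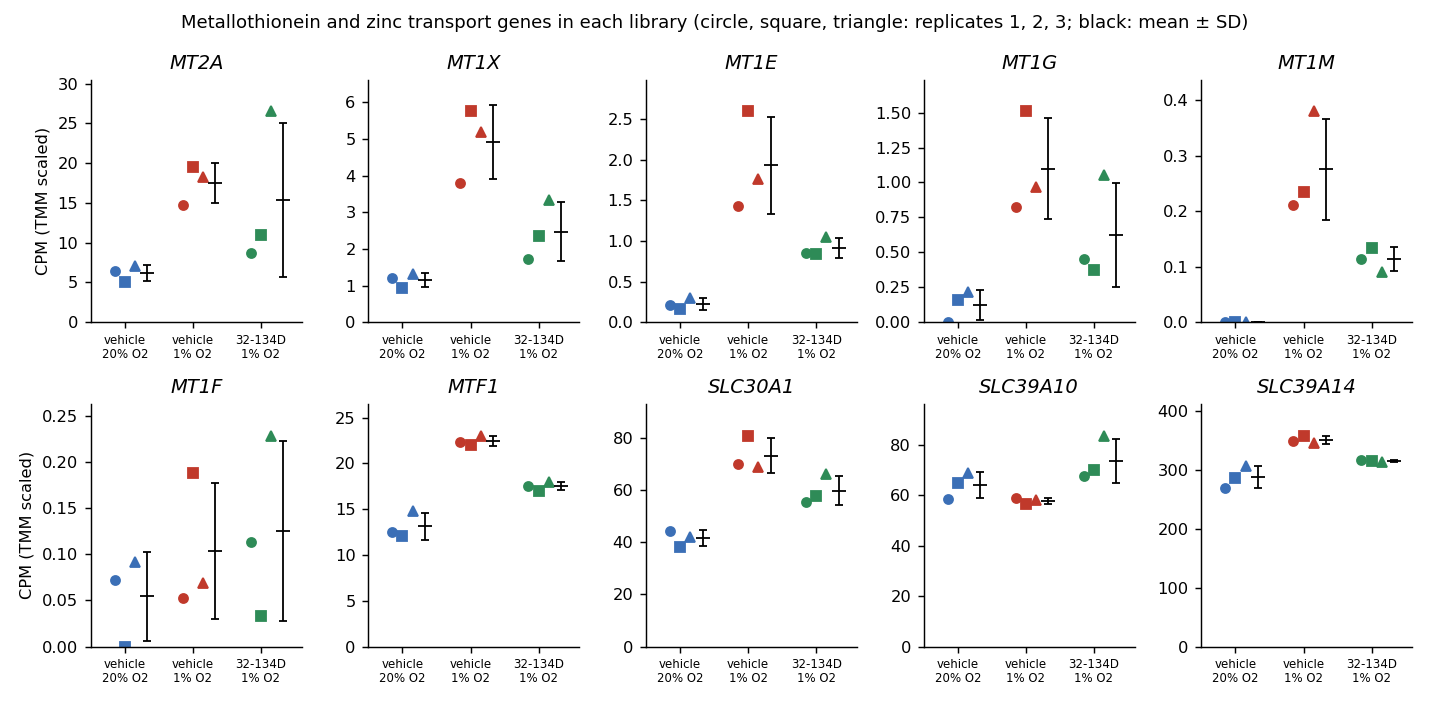
TMM-scaled CPM of each of the 10 genes in the 9 libraries, with circles, squares and triangles for replicates 1, 2 and 3 and black bars for the mean ± SD of each group of 3. MT2A runs from 5.02 to 7.06 CPM with vehicle at 20% O2 and from 14.7 to 19.6 with vehicle at 1% O2, and the 32-134D libraries of MT2A spread from 8.65 to 26.5.

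MT2A, the most abundant metallothionein in these libraries, was measured at 6.45, 5.02 and 7.06 CPM with vehicle at 20% O2 and at 14.7, 19.6 and 18.3 CPM with vehicle at 1% O2. Every hypoxic library was above every normoxic library. The group means were 6.18 ± 1.04 and 17.5 ± 2.52 CPM (SD, n = 3 each), a log2 fold change of 1.44 ± 0.33 (SE) with an edgeR FDR of 0.00176. These levels rest on 32 to 232 counts per normoxic library and 415 to 555 per hypoxic library.

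MT1X, the second metallothionein by level, had 1.22, 0.942 and 1.31 CPM with vehicle at 20% O2 and 3.79, 5.75 and 5.19 CPM with vehicle at 1% O2. The groups were again apart, with means of 1.16 ± 0.191 and 4.91 ± 1.01 CPM (SD, n = 3 each). The log2 fold change was 1.995 ± 0.28 (SE), with an edgeR FDR of 2.02e-05. MT1X lies at chr16:56682424-56684196 on GRCh38, where its annotated exons overlap the transcript AC026461.1 on the same strand.

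MT1E rose from 0.215, 0.157 and 0.304 CPM to 1.43, 2.59 and 1.76 CPM, and MT1G from 0, 0.157 and 0.213 CPM to 0.822, 1.51 and 0.968 CPM. In both genes all hypoxic libraries lay above all normoxic libraries. The log2 fold changes were 2.85 ± 0.37 for MT1E and 2.83 ± 0.62 for MT1G (SE), with edgeR FDRs of 1.16e-05 and 0.0012. The normoxic values are thin, since the 3 libraries together held 14 counts of MT1E and 8 of MT1G.

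MT1M was not detected in any library with vehicle at 20% O2, and 8, 5 and 11 counts were present in the libraries with vehicle at 1% O2. Set against a floor of 3 counts over the normoxic group, this was at least 4.84-fold higher, with an edgeR FDR of 0.0015. MT1F held 1, 0 and 3 counts at 20% O2 and 2, 4 and 2 counts at 1% O2. At this depth no difference in MT1F was detectable, with overlapping libraries and an edgeR FDR of 0.787.

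These paralogs share exon sequence, so reads can be divided between them in ways the counting decides. Of all 50-base windows of annotated transcripts, 81.7% of those of MT1X, 83.5% of MT1G, 90.1% of MT1M, 92.9% of MT1E, 97.0% of MT2A and 98.8% of MT1F occurred in no other gene. Windows were compared with transcripts of any other gene on either strand, which for MT1X can include the overlapping AC026461.1, and not with paralogs alone. They also cover transcripts longer than the principal one, as in MT1X with 1773 exon bases against 450. How many reads the paralogs share was thus not measured. The split between individual metallothioneins is uncertain, and their sum is less so. Summed over the 6 metallothioneins, the level was 7.96, 6.28 and 8.97 CPM with vehicle at 20% O2 and 21.0, 29.8 and 26.7 CPM with vehicle at 1% O2, with means of 7.74 ± 1.36 and 25.8 ± 4.47 (SD, n = 3 each).

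The share of metallothionein counts that belonged to MT2A was 81.1%, 80.0% and 78.6% in the normoxic libraries and 70.0%, 65.6% and 68.6% in the hypoxic libraries. Every hypoxic library had a lower share than every normoxic library. The 95% Wilson intervals, which cover counting error only, ran from 65.2% to 89.5% in the shallowest normoxic library and from 61.8% to 69.2% in the hypoxic library with the lowest share.

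MTF1, the zinc sensor, was measured at 12.5, 12.1 and 14.8 CPM with vehicle at 20% O2 and 22.4, 21.97 and 23.0 CPM with vehicle at 1% O2. All hypoxic libraries were above all normoxic ones, and the log2 fold change was 0.75 ± 0.10 (SE), with an edgeR FDR of 1.69e-05. With scaling by total library size in place of TMM, which lowered the median log2 fold change of all genes to -0.21, the value for MTF1 was 0.54 and fell below the fold threshold. MTF1 overlaps a pseudogene on the opposite strand, AL929472.4, as SLC39A14 does AC105910.1 and SLC39A10 does AHCYP5 and the small nuclear RNA RNU6-915P. The strand setting of the counting is not given in the sources used here, so reads of such partners cannot be told apart if strand was not used.

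SLC30A1, the plasma membrane exporter, had 44.5, 38.3 and 42.2 CPM at 20% O2 and 69.9, 80.8 and 68.8 CPM at 1% O2. The groups did not overlap, with means of 41.6 ± 3.10 and 73.2 ± 6.65 CPM (SD, n = 3 each). The log2 fold change was 0.80 ± 0.09 (SE), with an edgeR FDR of 3.95e-06. The gene lies at chr1:211571568-211578742 on the minus strand, and all of its 50-base windows were its own.

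Neither ZIP importer of the 10 was called with hypoxia. SLC39A14 had 269, 286 and 306 CPM with vehicle at 20% O2 and 349, 357 and 345 CPM with vehicle at 1% O2, so that the groups were apart. Its log2 fold change of 0.29 ± 0.07 (SE) had an edgeR FDR of 0.00211 and did not reach the fold threshold. With scaling by total library size it was 0.07 with an edgeR FDR of 0.389. After thinning to the smallest library it was 0.17 with an FDR of 0.0703. SLC39A10 had 58.7, 64.9 and 68.8 CPM at 20% O2 and 59.0, 56.7 and 58.0 CPM at 1% O2, and these libraries overlapped. Its log2 fold change was -0.15 ± 0.09 (SE), with an edgeR FDR of 0.187. It passed the FDR with scaling by total library size (-0.36, edgeR FDR 0.00376) and with the filterByExpr filter (-0.22, FDR 0.0463). It also did so without vehicle at 20% O2 replicate 1 (-0.26, FDR 0.0303). All of these lay under the fold threshold.

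**Figure D3:**
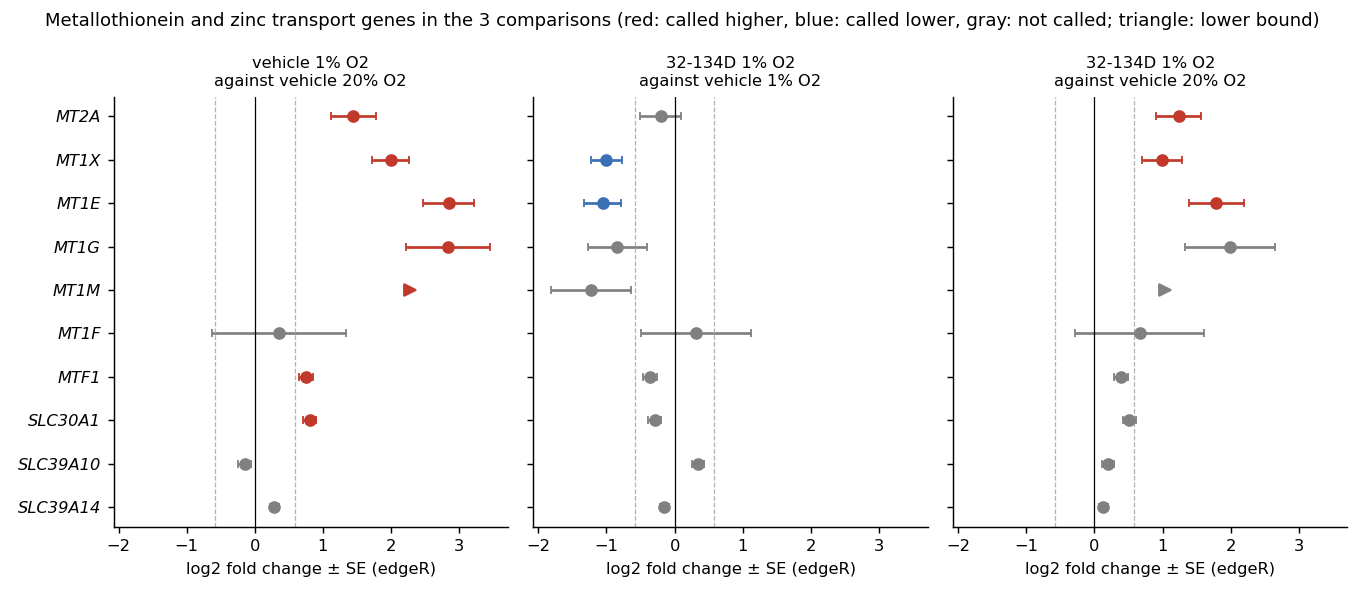
Log2 fold changes of the 10 genes from the edgeR fit in the 3 comparisons, with bars of 1 SE, dashed lines at the fold threshold of 1.5 in either direction, and red, blue and gray for called higher, called lower and not called. For MT1M, which was at 0 in the 3 libraries with vehicle at 20% O2, a triangle marks the lower bound in the comparisons against that group. With hypoxia MT1E, MT1G, MT1M, MT1X, MT2A, MTF1 and SLC30A1 lie to the right of the upper dashed line. MT1F and SLC39A14 lie between 0 and that line, and SLC39A10 lies to the left of 0. MT1E and MT1X lie near -1 with 32-134D at 1% O2.

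Levels of different genes were set against each other per kilobase of annotated exon. With vehicle at 20% O2 the order was SLC39A14 at 41.4 ± 2.66, SLC39A10 at 9.27 ± 0.733, SLC30A1 at 7.61 ± 0.567, MT2A at 4.76 ± 0.803, MTF1 at 1.64 ± 0.183 and MT1X at 0.652 ± 0.108 CPM per kb (SD, n = 3), and no neighbours in this series overlapped. MT1E, MT1G and MT1F followed, each overlapping the next, and MT1M was at 0. With vehicle at 1% O2, SLC39A14 was at 50.5, MT2A at 13.5, SLC30A1 at 13.4, SLC39A10 at 8.37, MTF1 at 2.80, MT1X at 2.77, MT1E at 1.83 and MT1G at 1.47 CPM per kb. There MT2A and SLC30A1 overlapped, and MTF1, MT1X and MT1E each overlapped the next gene, whereas MT1G did not overlap MT1M. MT2A thus stood below SLC39A10 and SLC30A1 in normoxia and above SLC39A10 in hypoxia.

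The places of MT2A and MT1X depend on the length used. The annotated exons of MT2A cover 1299 bases, the whole gene, against 786 bases in the principal transcript, and those of MT1X cover 1773 against 450 bases. Per kilobase of principal transcript, MT2A was at 22.3 and MT1X at 10.9 CPM per kb with vehicle at 1% O2, beside 13.4 for SLC30A1 and 10.7 for SLC39A10. On that scale MT2A no longer overlapped SLC30A1 in hypoxia, and in normoxia it was at 7.86 CPM per kb and overlapped SLC30A1. The order of MTF1 and MT1X was reversed, with MT1X at 2.57 and MTF1 at 1.65 CPM per kb in normoxia, without overlap. In hypoxia they were at 10.9 and 2.82. This alternative was chosen after seeing the data.

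At 1% O2, 32-134D was compared with vehicle to measure how the compound changed expression in hypoxic cells. MT1E and MT1X were lower, and 0 of the 10 genes were higher. Over all genes tested 13.7% were lower and 16.2% higher by the same rule, 29.9% in either direction. The median log2 fold change was -0.33 over the 10 genes and -0.01 over all genes tested, and the libraries did not overlap in 7 of the 10 genes, against 56.1% of all genes tested. This comparison shares the libraries with vehicle at 1% O2 with the hypoxia comparison, so the values of the comparisons are not independent.

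MT1E had 0.851, 0.842 and 1.05 CPM with 32-134D, below each of the 3 vehicle libraries at 1% O2, which lay between 1.43 and 2.59 CPM. Its expression fell by 1.06 ± 0.27 (SE) on the log2 scale, with an edgeR FDR of 0.00469. MT1X had 1.73, 2.36 and 3.34 CPM with the compound, again below every vehicle library, the lowest of which was at 3.79 CPM. It fell by 1.00 ± 0.23 (SE) on the log2 scale, with an edgeR FDR of 0.0023. Neither call was kept when all libraries were thinned to the 6013980 counts of the smallest one, where the log2 fold changes were -0.79 for MT1E and -0.71 for MT1X.

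MT2A in the compound libraries was measured at 8.65, 10.9 and 26.5 CPM. Replicates 1 and 2 were below all vehicle libraries at 1% O2, and replicate 3 was above all of them, so the groups overlapped. Over all libraries the log2 fold change was -0.21 ± 0.30 (SE), with an edgeR FDR of 0.605. Without 32-134D replicate 3 it was -0.83 ± 0.13 with an FDR of 2.95e-06, a call of lower expression, and without 32-134D replicate 1 it was 0.15 with an FDR of 0.679.

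In MT1G replicate 3 was also the highest compound library, at 0.454, 0.370 and 1.05 CPM with the compound against 0.822 to 1.51 CPM with vehicle at 1% O2. Replicate 3 lay within the vehicle range and the others lay below it. The log2 fold change of MT1G was -0.84 ± 0.43 (SE) with an edgeR FDR of 0.125, and -1.35 ± 0.40 with an FDR of 0.0061 without 32-134D replicate 3. Leaving that library out raised the number of the 10 genes called lower from 2 to 4. The liver markers lowest in that library, TTR, FGB and TF among them, are given as values, and their part in the metallothionein result was not tested.

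The summed metallothionein level with 32-134D was 11.9, 14.7 and 32.3 CPM, a mean of 19.6 ± 11.1 (SD, n = 3), and its mean was 13.3 without replicate 3. Replicates 1 and 2 lay between the normoxic range of 6.28 to 8.97 and the hypoxic vehicle range of 21.0 to 29.8 CPM. The share of MT2A in the metallothionein counts was 72.6%, 74.5% and 82.2% in the 3 compound libraries, highest in replicate 3.

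MT1M held 4, 4 and 2 counts with 32-134D, and its CPM of 0.0915 to 0.135 lay below the 0.212 to 0.380 CPM of vehicle at 1% O2. Its log2 fold change was -1.23 ± 0.58 (SE), with an edgeR FDR of 0.104. MT1F held 4, 1 and 5 counts with the compound, overlapping vehicle, and had an edgeR FDR of 0.788. No difference in these genes was detectable at this depth.

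MTF1 was at 17.5, 17.0 and 17.9 CPM with 32-134D, below all 3 vehicle libraries at 1% O2. The log2 fold change was -0.36 ± 0.10 (SE), with an edgeR FDR of 0.00618 and a change under the fold threshold. SLC30A1 was at 55.4, 57.7 and 66.1 CPM, also below every vehicle library. Its log2 fold change was -0.29 ± 0.09 (SE), with an edgeR FDR of 0.0157, again under the fold threshold. Both genes thus passed the FDR without being called.

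SLC39A10 was at 67.6, 70.0 and 83.6 CPM with 32-134D, above each vehicle library at 1% O2. Its log2 fold change was 0.35 ± 0.09 (SE), with an edgeR FDR of 0.00491 and a change under the fold threshold, and it was the single gene of the 10 to pass the FDR upward. SLC39A14 was at 316, 315 and 313 CPM, below the 345 to 357 CPM of vehicle. The log2 fold change was -0.15 ± 0.07 (SE) with an edgeR FDR of 0.0705, and scaling by total library size, under which the median of all genes moved to 0.17, turned it to 0.03.

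Cells with 32-134D at 1% O2 were also set against vehicle at 20% O2, a comparison in which the compound and O2 differ together. MT1E, MT1X and MT2A were higher with 32-134D, and 0 of the 10 genes were lower. Over all genes tested 3.0% were higher and 0.516% lower, 3.52% in either direction. The median log2 fold change was 0.83 over the 10 genes, also with MT1M at its lower bound, and -0.00 over all genes, and 8 of the 10 genes had libraries that did not overlap, against 29.8% of all genes tested.

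The log2 fold changes were 1.79 ± 0.40 for MT1E, 0.99 ± 0.29 for MT1X and 1.24 ± 0.33 for MT2A (SE), with edgeR FDRs of 0.011, 0.0421 and 0.0288. In all 3 genes every compound library was above every normoxic library. The calls of MT1X and MT2A were each lost when any 1 of the normoxic libraries was left out, with FDRs of 0.0867, 0.12 and 0.124 for MT1X and 0.0821, 0.113 and 0.092 for MT2A without replicates 1, 2 and 3. The log2 fold changes themselves stayed between 0.93 and 1.11 for MT1X and between 1.16 and 1.36 for MT2A in those fits. Without 32-134D replicate 3 the log2 fold changes were 0.71 for MT1X, with an FDR of 0.0798, and 0.58 for MT2A, under the fold threshold, and without 32-134D replicate 2 MT1X had an FDR of 0.0669. MT1E kept its call without any single library of these groups, with log2 fold changes from 1.68 to 2.17, and lost it when all libraries were thinned to the smallest, with a log2 fold change of 1.16 and an FDR of 0.32.

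MTF1 and SLC30A1 passed the FDR with log2 fold changes of 0.39 ± 0.10 and 0.51 ± 0.09 (SE), edgeR FDRs of 0.0262 and 0.00308, and changes under the fold threshold. In both genes the compound libraries lay wholly between those of vehicle at 20% O2 and those of vehicle at 1% O2. MT1G had a log2 fold change of 1.99 ± 0.66 with an FDR of 0.0743, and MT1M was at least 2.04-fold higher with an FDR of 0.0626. SLC39A10, SLC39A14 and MT1F had log2 fold changes of 0.20, 0.13 and 0.66, with FDRs of 0.196, 0.25 and 0.734.

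The 6 metallothionein genes lie with 10 further listed metallothionein genes and pseudogenes in 1 cluster of 119.1 kb at chr16:56565049-56684196 on GRCh38. In the cluster 7 of the 16 genes reached the 10 summed counts needed for a test, and 6 had no count in any library. MT2A, at chr16:56608199-56609497, held 3063 counts over the 9 libraries, MT1X 685, MT1E 252, MT1G 149, MT1M 34, MT1F 22 and MT1H 15. Of the 15 other metallothionein genes and pseudogenes listed, on any chromosome, 8 were at 0 in all libraries and 2 were tested, MT1H and the processed pseudogene MT1XP1.

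MT1H held no counts with vehicle at 20% O2, 7, 4 and 2 counts with vehicle at 1% O2 and 0, 1 and 1 with 32-134D. It was called higher with hypoxia, at least 2.62-fold, with an edgeR FDR of 0.0191. The call was lost without vehicle at 20% O2 replicate 3, with an FDR of 0.104. MT1XP1 was not called in any of the 3 comparisons.

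**Figure D4:**
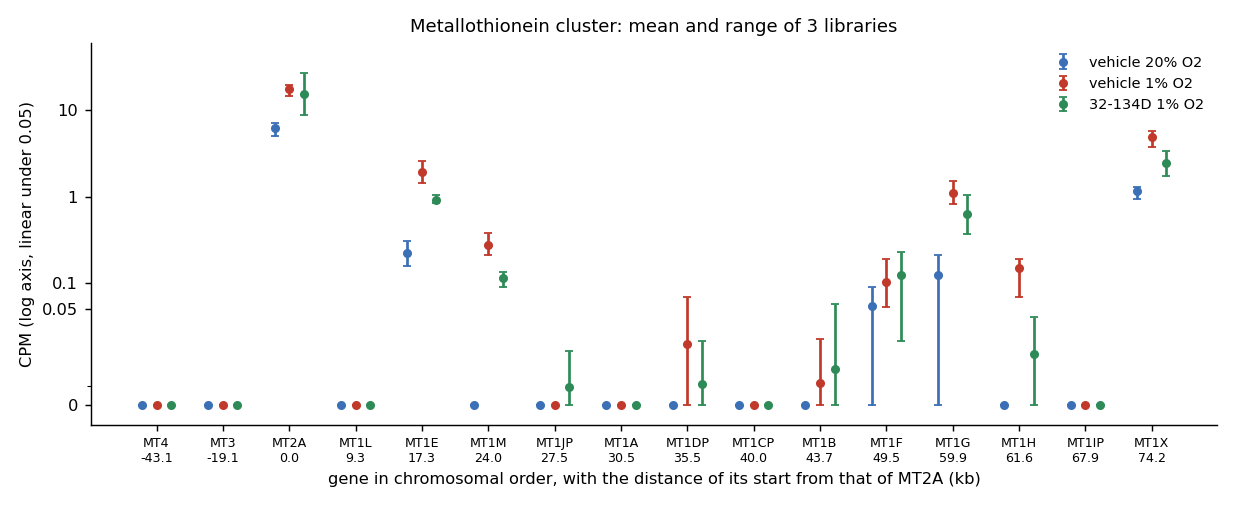
The metallothionein genes and pseudogenes of the cluster in chromosomal order, each with its distance in kb from the start of MT2A, and the TMM-scaled CPM of each group of 3 libraries as mean (point) and range (bar), on a log axis that is linear under 0.05 CPM. MT2A and MT1X, the outermost of the tested genes, have the highest levels, with means of 17.5 and 4.91 CPM with vehicle at 1% O2, and MT4, MT3, MT1L, MT1A, MT1CP and MT1IP are at 0 in every group.

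The other zinc transporters and a set of copper handling genes were counted as lists. Over all genes tested, 19.5% were higher and 20.3% lower with hypoxia, and 16.2% and 13.7% with 32-134D at 1% O2. Against vehicle at 20% O2 these shares were 3.0% and 0.516%. Of 8 tested ZnT genes other than SLC30A1, 1 was higher and 0 were lower with hypoxia, with a median log2 fold change of 0.24. SLC30A5, which carries zinc into the early secretory pathway, rose from 39.1, 39.4 and 39.8 CPM to 61.9, 57.2 and 61.2 CPM, a log2 fold change of 0.61 ± 0.07 (SE) with an edgeR FDR of 5.32e-06. Its groups were well apart, but the change sat close to the fold threshold and was 0.55 without vehicle at 20% O2 replicate 1 and 0.58 without vehicle at 1% O2 replicate 1, both below it. With 32-134D, SLC30A5 was at 43.6, 40.8 and 43.3 CPM, a log2 fold change of -0.50 that passed the FDR and not the fold threshold.

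SLC30A2, a zinc transporter of vesicles, was the single ZnT gene called higher with 32-134D against vehicle at 1% O2, at 0.766, 0.404 and 0.457 CPM against 0.133, 0.330 and 0.311 CPM. It had 76 counts over all 9 libraries. The log2 fold change was 1.16 ± 0.45 (SE) with an edgeR FDR of 0.0466, and the call was lost without vehicle at 1% O2 replicate 1 or 2, with FDRs of 0.196 and 0.0524, or without 32-134D replicate 1, with an FDR of 0.231. Against vehicle at 20% O2 its log2 fold change was 2.25 ± 0.59 with an FDR of 0.0257, and that call was lost without any 1 of the normoxic libraries or without 32-134D replicate 1, with FDRs from 0.0556 to 0.128.

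Of 11 tested ZIP genes other than SLC39A10 and SLC39A14, 2 were higher and 2 were lower with hypoxia, with a median log2 fold change of -0.24. These counts were near the shares over all genes tested, 19.5% and 20.3%. SLC39A11 (ZIP11) fell from 41.1, 46.0 and 42.6 CPM to 10.8, 12.4 and 11.8 CPM, and SLC39A4 (ZIP4), the intestinal zinc importer, fell from 11.3, 7.07 and 8.82 CPM to 3.26, 3.87 and 3.28 CPM. In both, every hypoxic library was below every normoxic library. They fell by 1.89 ± 0.10 and 1.41 ± 0.18 (SE) on the log2 scale, with edgeR FDRs of 8.61e-10 and 6.63e-06.

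SLC39A6 (ZIP6) and SLC39A1 (ZIP1), both zinc importers, were the ZIP genes called higher with hypoxia. SLC39A6 rose from 48.6, 43.2 and 46.7 CPM to 79.7, 74.7 and 73.1 CPM, a log2 fold change of 0.71 ± 0.10 (SE) with an edgeR FDR of 3.51e-05. SLC39A1 rose from 4.30, 3.61 and 5.26 CPM to 8.27, 7.12 and 6.60 CPM, a log2 fold change of 0.68 ± 0.19 with an FDR of 0.00753. Neither gene overlapped between the groups, and SLC39A1 fell below the fold threshold, at 0.58, without vehicle at 1% O2 replicate 1. With scaling by total library size both were below it, at 0.50 and 0.47.

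With 32-134D at 1% O2, 2 of the 11 ZIP genes were higher and 0 were lower, with a median of 0.02. The shares over all genes tested were 16.2% and 13.7%. SLC39A11 was at 32.9, 34.5 and 38.6 CPM, a log2 fold change of 1.60 ± 0.10 (SE) with an edgeR FDR of 1.08e-08, and SLC39A4 was at 6.64, 6.497 and 8.14 CPM, a log2 fold change of 1.03 ± 0.17 with an FDR of 0.000147. Both genes were above all vehicle libraries at 1% O2. Against vehicle at 20% O2, 0 of the 11 were called in either direction, and SLC39A11 had a log2 fold change of -0.29 with an FDR of 0.0619.

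**Figure D5:**
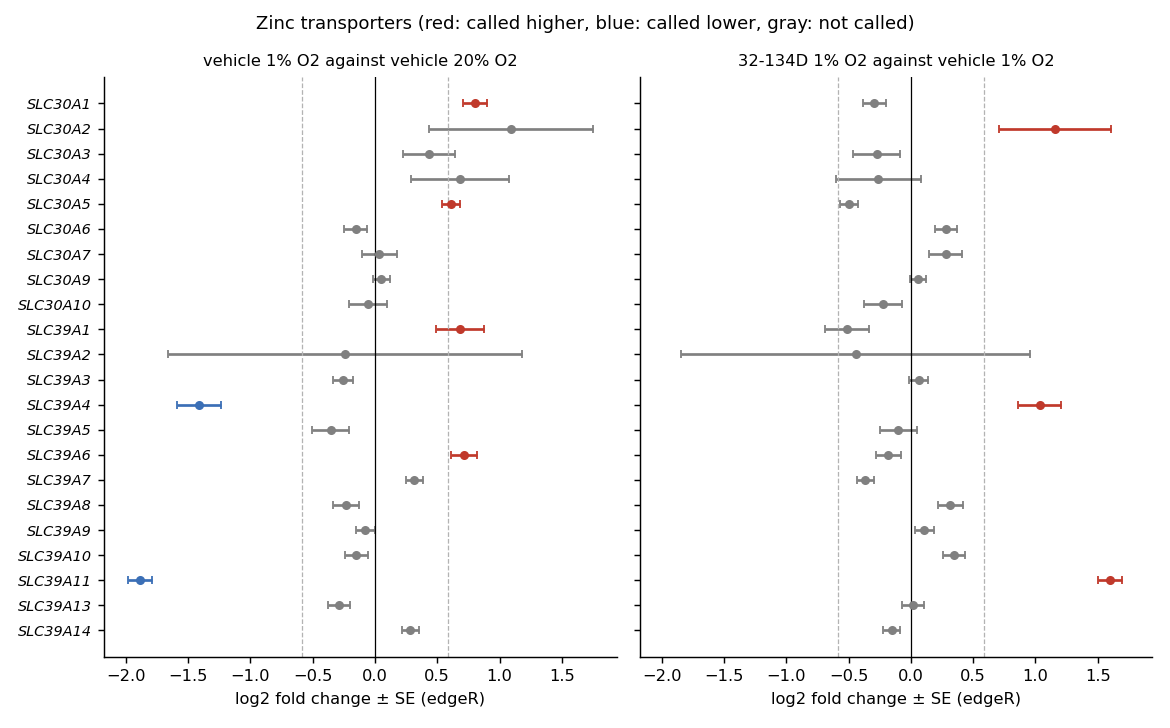
Log2 fold changes (edgeR, bars of 1 SE) of all tested ZnT and ZIP genes, with vehicle at 1% O2 against vehicle at 20% O2 on the left and 32-134D against vehicle at 1% O2 on the right. Red, blue and gray stand for called higher, called lower and not called, and dashed lines mark the fold threshold of 1.5. SLC39A11 and SLC39A4 are on the left of 0 with hypoxia, at -1.89 and -1.41, and on the right of it with 32-134D, at 1.60 and 1.03.

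Metallothioneins bind copper as well as zinc. Of 9 copper handling genes tested, 3 were higher with hypoxia, COX17, SOD1 and CP, and 1, ATP7B, was lower, with a median log2 fold change of 0.41. Over all genes tested 19.5% were higher and 20.3% lower. ATP7B, the liver copper exporter, fell from 35.6, 50.4 and 47.3 CPM to 20.6, 20.7 and 18.1 CPM, by 1.16 ± 0.15 (SE) on the log2 scale, with an edgeR FDR of 1.4e-05. CP, which encodes the copper-carrying plasma protein ceruloplasmin, rose from 39.9, 51.7 and 46.5 CPM to 69.8, 82.1 and 95.7 CPM, a log2 fold change of 0.85 ± 0.14 with an FDR of 0.000108. Neither gene overlapped between the groups.

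SOD1, the copper and zinc superoxide dismutase, had a log2 fold change of 0.75 ± 0.09 (SE) with hypoxia, an edgeR FDR of 3.5e-06, and fell under the fold threshold, at 0.53, with scaling by total library size. COX17, a copper chaperone of mitochondria, had a log2 fold change of 0.59 ± 0.12 with an FDR of 0.000743. That value was barely over the threshold, and the call was lost without vehicle at 20% O2 replicate 2 or 3 (0.53 and 0.52) or vehicle at 1% O2 replicate 2 or 3 (0.54 and 0.51).

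With 32-134D against vehicle at 1% O2, 1 of the 9 copper genes was higher and 3 were lower, with a median of -0.21. Over all genes tested 16.2% were higher and 13.7% lower. ATP7B was at 37.8, 40.8 and 26.4 CPM, above all vehicle libraries, with a log2 fold change of 0.83 ± 0.15 (SE) and an edgeR FDR of 0.000359. SOD1 fell by 0.69 ± 0.09 on the log2 scale with an FDR of 1.18e-05, and CP by 0.62 ± 0.14 with an FDR of 0.00145. SLC31A2, a low-affinity copper transporter, fell by 0.59 ± 0.15 with an FDR of 0.00546.

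The SLC31A2 and CP calls sat near the fold threshold. SLC31A2 was at -0.54 and -0.50 without vehicle at 1% O2 replicates 1 and 3 and at -0.54 and -0.49 without 32-134D replicates 2 and 3. CP was at -0.44 without vehicle at 1% O2 replicate 3, and at -0.46 and -0.58 without 32-134D replicates 1 and 2. All of these lie under the threshold, and 0 of the 9 genes were called against vehicle at 20% O2.

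The genes whose pattern over the 9 libraries was most like that of MT2A were ranked by Pearson r of log2 CPM among 9873 genes with a mean of at least 10 CPM. TUSC3 (0.985), ABLIM3 (0.983), EGFR-AS1 (0.980), KIAA1143 (0.977) and CCNH (0.975) led that order. For SLC30A1 they were GTF2F2 (0.985), TKT (0.985), ARL14EP (0.983), YRDC (0.982) and TNFSF9 (0.980), and for SLC39A14 they were SPATA2 (0.991), HMGXB3 (0.991), M6PR (0.986), SCAF4 (0.986) and ADAMTS1 (0.985). These are descriptions over 9 points that share 3 groups. TUSC3 had group means of 34.7 CPM with vehicle at 20% O2, 46.0 with vehicle at 1% O2 and 43.6 with 32-134D, an order that MT2A shared at 6.18, 17.5 and 15.4 CPM.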

How the data were processed

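RNA was extracted with TRIzol, treated with DNase and sequenced on a NovaSeq6000. The authors deposited raw counts per Ensembl gene (release 100, GRCh38); the submitters' notes and the study's methods name FastQC, MultiQC, Bbduk, STAR, featureCounts and DESeq2, with versions and the strand setting not given in the sources used here. All 9 columns were matched to samples by name, and 0 were left over. The culture medium differs between the labels (DMEM/F12) and the methods.

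CPM and log2 fold changes were computed with edgeR 4.0.16 in R 4.3.3 (TMM, quasi-likelihood test, 9 libraries in 1 fit, 22672 genes with summed counts of at least 10). DESeq2 1.42.0, other scalings, filters, thinning and leaving out libraries were alternatives. Positions came from GENCODE 29. Replicate pairs differed by more than counting error (chi-square per degree of freedom 1.62 to 36.4). On simulated counts, edgeR recovered 99.1% of changed genes with a mean count of at least 50 and 31.7% below it in the hypoxia comparison, among 22201 genes. The simulation changed 200 genes and gave every gene the same spread between libraries. Its values do not cover genes with a larger spread, such as MT2A with 32-134D (SD 9.73 on a mean of 15.4 CPM).

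The genes named are the 10, members of the zinc, copper and metallothionein lists called in any comparison, and the 5 genes most like MT2A, SLC30A1 and SLC39A14. Genes used beside a result as markers (CA9, liver and other cell types) come from fixed lists too. The genes and lists were chosen with earlier results of these data known.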

Additional observations from a re-analysis of the deposited data

How the results depend on the processing

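With hypoxia 7 of the 10 genes were called higher and 0 lower, and these counts held without any 1 library. The 7 became 6 with total library size (without MTF1), 6 with filterByExpr and 6 after thinning (MT1M not tested in either), 5 at a fold above 2 (without MTF1 and SLC30A1) and 8 with no fold threshold (with SLC39A14). Genes of the 10 called lower with 32-134D at 1% O2 numbered 2, with 0 after thinning, 4 without the 2 libraries that stood apart, 4 with no fold threshold and 2 to 4 without single libraries, and those called higher numbered 0, with 1 when no fold threshold was set. Against vehicle at 20% O2, 3 were higher, with 1 in a fit of only the groups compared, 1 after thinning, 1 without the libraries that stood apart, 5 with no fold threshold and 1 to 3 without single libraries. The other genes tested were 2 metallothionein, 8 ZnT, 11 ZIP and 9 copper genes, and the shares over all genes tested are given above. Of the other zinc, copper and metallothionein genes, 7 were called higher with hypoxia, with 4 by DESeq2, 2 with scaling by total library size, 4 with the filterByExpr filter, 4 after thinning, 1 at a fold above 2 and 4 to 7 without single libraries. Those 7 include MT1H, which reached a test only through its counts with vehicle at 1% O2. The 3 called lower became 5 with no fold threshold. With 32-134D at 1% O2, 4 were higher, 7 with no fold threshold. There, 3 were lower, with 1 by DESeq2, 1 with relative log expression scaling, 0 with total library size, 1 with filterByExpr, 1 in the fit of 2 groups, 1 after thinning, 0 at a fold above 2, 8 with no fold threshold and 1 to 3 without single libraries. Against vehicle at 20% O2, 1 was higher, with 0 by DESeq2, 0 after thinning, 3 with no fold threshold and 0 to 1 without single libraries, and 0 were lower, with 0 to 1 without single libraries.

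Signs turned for MT1F, with 4 to 10 counts per group, with hypoxia without vehicle at 1% O2 replicate 2 (-0.26 to 0.89 without single libraries), with 32-134D at 1% O2 without the libraries that stood apart (-0.28) and without single libraries (-0.28 to 0.92), and against vehicle at 20% O2 without the libraries that stood apart (-0.15). They also turned for MT2A with 32-134D at 1% O2 (-0.83 to 0.15 without single libraries), for SLC39A14 (0.033) and SLC39A6 (0.0046) with total library size in that comparison, and for SOD1 against vehicle at 20% O2 (-0.0023 to 0.15 without single libraries). The cause was not tested. Total library size moved the median log2 fold change of all genes to -0.21 with hypoxia and 0.17 with 32-134D, and the share of calls that were higher from 48.98% to 34.5% and from 54.2% to 72.0%.

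No pairing by replicate number was detected: 0 of 9 pairs of same-numbered libraries had deviations correlated over 0.1, with r from -0.032 to 0.0052. Pairs with unequal numbers were as near 0, with r from -0.017 to 0.037. The check used all genes tested, low counts included, so it cannot exclude pairing. With the numbers as a replicate block, the other genes higher against vehicle at 20% O2 went from 1 to 0, SLC30A2 lost both calls and MT1H had an FDR of 0.0504 with hypoxia. DESeq2 gave no adjusted p for MT1H in any comparison, or for MT1F, MT1G, MT1M and SLC30A2 against vehicle at 20% O2. Depth limits MT1E, MT1G, MT1M and MT1F most, whose mean counts lay under 50.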
